A study of Mus musculus with 33 samples.

Results

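Biotin-positive and biotin-negative cells of mouse brain were compared after intracardiac injection, using the 4 brain samples of each sort, numbered 1 to 4, out of 33 samples in all. The method, named SAMENT, is a niche labelling system built so that tumour cells put a biotin tag on the cells beside them, and labelled neighbours can then be sorted away from the rest of the tissue. All 8 brain samples shared the injection, an overnight exposure to the labelling substrate, dissociation with collagenase A and the sort, and differed in whether the sorted cells carried biotin. The labels name no mouse strain, age, tumour line, construct or animal, so the samples are described here only by tissue, sort and replicate number. Of 9842 deposited brain barcodes, 9665 were kept (500 or more gene UMIs, 200 or more genes detected, and no more than 15% of UMIs from mitochondrial genes), 2206 of them biotin positive and 7459 biotin negative, out of 55366 kept cells of all intracardiac tissues.

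Distinct kinds of macrophage live in and around the healthy brain. Microglia sit in the parenchyma and are known by the purinergic receptor P2ry12, the membrane protein Tmem119 and the transcription factor Sall1. Border-associated macrophages line the meninges, the perivascular spaces and the choroid plexus, and are known by the mannose receptor Mrc1, the hyaluronan receptor Lyve1 and the haemoglobin scavenger Cd163. Monocytes, neutrophils and lymphocytes reach a brain preparation mostly from blood, skull marrow and borders.

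Positive samples held 310 to 675 kept cells and 1328290 to 4614100 UMIs, and negative samples 1098 to 2857 cells and 5285120 to 28669600 UMIs. Median UMIs per cell ran from 3705 to 5160 and from 3698.5 to 7214. A unique molecular identifier (UMI) marks 1 captured RNA molecule. The sample tag with the most counts took 80.5% to 93.0% of all tag counts in positive samples and 61.0% to 82.0% in negative ones. Samples with the same number shared 0 barcodes, and 14 were shared over the 24 brain pairs with different numbers. Nothing in the labels says that samples came from separate mice, so p-values measure the spread between these samples.

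Cells fell into 29 clusters, of which 22 could be named from marker lists. Class names stand for resemblance to the markers only. The microglia-like class was 1 cluster of 446 cells in which all 11 microglial markers were among the 100 leading genes. The border-associated macrophage-like class was a cluster of 712 cells with 11 of 12 markers and a smaller, shallow one of 134 cells with 9, at a median of 1132 UMIs. No cluster carried the name of neurons, astrocytes or oligodendrocytes: the summed level of 9 neuronal markers was 5.46 to 11.8 CPM (counts per 1e+06 counts) in positive and 1.38 to 4.35 in negative samples. The summed level of 7 astrocyte markers was 10.8 to 75.4 CPM in positive and 2.16 to 10.1 in negative samples, and that of 8 oligodendrocyte markers 37.7 to 238 and 65.6 to 92.8. Over all kept cells 2 of these astrocyte markers and 4 of the oligodendrocyte markers could be tested. The astrocyte glutamate transporter Slc1a3 was higher in positive samples (log2 fold change 5.53 ± 1.07 (SE), adjusted p = 0.0321), against 2.88% of all genes. No oligodendrocyte gene passed, and 2 of the 4 had positive and 2 negative log2 fold changes, among them Cnp at -0.59. With the replicate number as a block 1 of the 4 was higher, the myelin gene Mag (log2 fold change 2.48 ± 0.63 (SE), adjusted p = 0.0698, or 0.0345 with the replicate block), against 5.58% of all genes. The part of these genes' source cells in the other values was not tested. Neutrophil precursors, cells of bone marrow, were found in both sorts. The named clusters held immune and vascular cells only. The unnamed clusters held 16.5% of the kept cells. The largest of them, of 731 cells, was led by Ltf and Ngp. A cluster of 242 cells led by Cxcl16, Rgs1, Axl and MHC class II genes held 69 positive cells, 43.4% of the unnamed positive ones, and 173 negative cells. One of 14 cells led by Dcn, Vtn and Igfbp5 held 10 positive cells. Others were led by Vpreb3 or by histone genes.

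The largest differences between the sorts lay in the brain's own macrophages. Border-associated macrophage-like cells made up 33.5, 75.9, 7.42 and 10.8% of positive samples 1 to 4 and 0.146, 1.305, 1.09 and 0.70% of negative samples 1 to 4. Positive replicate 2 was by far the highest, and the lowest positive sample was still above every negative one. Microglia-like cells made up 3.26, 3.41, 21.9 and 45.6% of the positive and 0.0977, 0.412, 0.546 and 0.63% of the negative samples, again without overlap. Here positive replicates 3 and 4 were high and replicates 1 and 2 low, whereas for border-associated macrophages replicates 1 and 2 were the high ones. The mean share of border-associated macrophages was 31.9% ± 31.5 (SD, n = 4) against 0.811% ± 0.509, a difference of 31.1 percentage points (two-sided exact permutation p = 0.0286, adjusted 0.107). For microglia it was 18.5% ± 20.05 against 0.422% ± 0.234 (SD, n = 4), a difference of 18.1 points with the same exact permutation p = 0.0286, adjusted 0.107. An exact p of 0.0286 is the smallest that 4 against 4 samples can give, and 15 classes were tested. Tested as cell numbers in edgeR, both classes passed, with log2 ratios of 5.30 and 5.43 (adjusted p = 4.42e-05 for both), and also with the replicate number as a block (0.00215 and 0.000866). Single libraries set the sizes: the difference in border-associated macrophages was 16.4 points without positive replicate 2, and that in microglia 9.11 without positive replicate 4. Added up, a sum chosen after its values were seen, the 2 classes took 36.8, 79.3, 29.4 and 56.4% of the positive samples and 0.244, 1.72, 1.64 and 1.33% of the negative ones.

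Classical monocytes, the Ly6c2 and Ccr2 expressing cells that blood supplies, went the other way. Their share was 4.71, 0.296, 2.903 and 0.747% in the positive and 21.9, 9.82, 21.1 and 8.61% in the negative samples. No positive sample reached the lowest negative one. The means were 2.16% ± 2.04 and 15.4% ± 7.12 (SD, n = 4, exact permutation p = 0.0286, adjusted 0.107), and edgeR on cell numbers gave an adjusted p of 0.0199, or 0.00269 with the block. B cells made up 4.35, 0.593, 0.968 and 1.79% of positive and 12.9, 5.77, 15.6 and 5.88% of negative samples, also without overlap. Their edgeR adjusted p was 0.0437, or 0.00887 with the block, at a log2 ratio of -2.37. Only these 4 of the 15 classes (26.7%) separated the sorts completely. Plasmacytoid dendritic cells, the interferon-producing cells, were 1 cell in the positive samples and 80 in the negative ones (edgeR adjusted p = 0.0183, or 0.00647 with the block). By edgeR on cell numbers 6 of 15 classes (40%) passed, or 5 (33.3%) with the block. Both the shares and these numbers were set against all kept cells of a sample. A large macrophage share therefore lowers the values of every other class, and values among the remaining cells were not tested.

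Endothelial-like cells, marked by Cldn5 and Flt1, were 6.703, 0.593, 1.29 and 3.29% of positive and 0.195, 1.099, 0.729 and 0.105% of negative samples. The groups overlapped, since positive replicate 2 lay below negative replicates 2 and 3. In edgeR the class had an adjusted p of 0.0416, which was 0.0957 with the block. T cells made up 2.17, 2.22, 27.4 and 4.04% of the positive and 6.35, 4.81, 11.9 and 11.6% of the negative samples. Of these shares of all kept cells, that of positive replicate 3 was the highest of all 8. The other 3 positive samples were lower than every negative one (exact permutation p = 1, n = 4 each). Without positive replicate 3 the difference of 0.304 points became -5.85. Mature neutrophils made up 18.8, 2.96, 19.7 and 24.5% and 8.74, 54.2, 16.2 and 37.1%, with the positive sample higher in 2 of 4 pairs. The difference of -12.6 points had an exact permutation p of 0.343, n = 4 each. With 1 sample left out it ranged from -19.3 points, when negative replicate 1 was dropped, to -4.20, when negative replicate 2 was. NK cells, dendritic cells and nonclassical monocytes overlapped between the sorts as well.

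**Figure D1:**
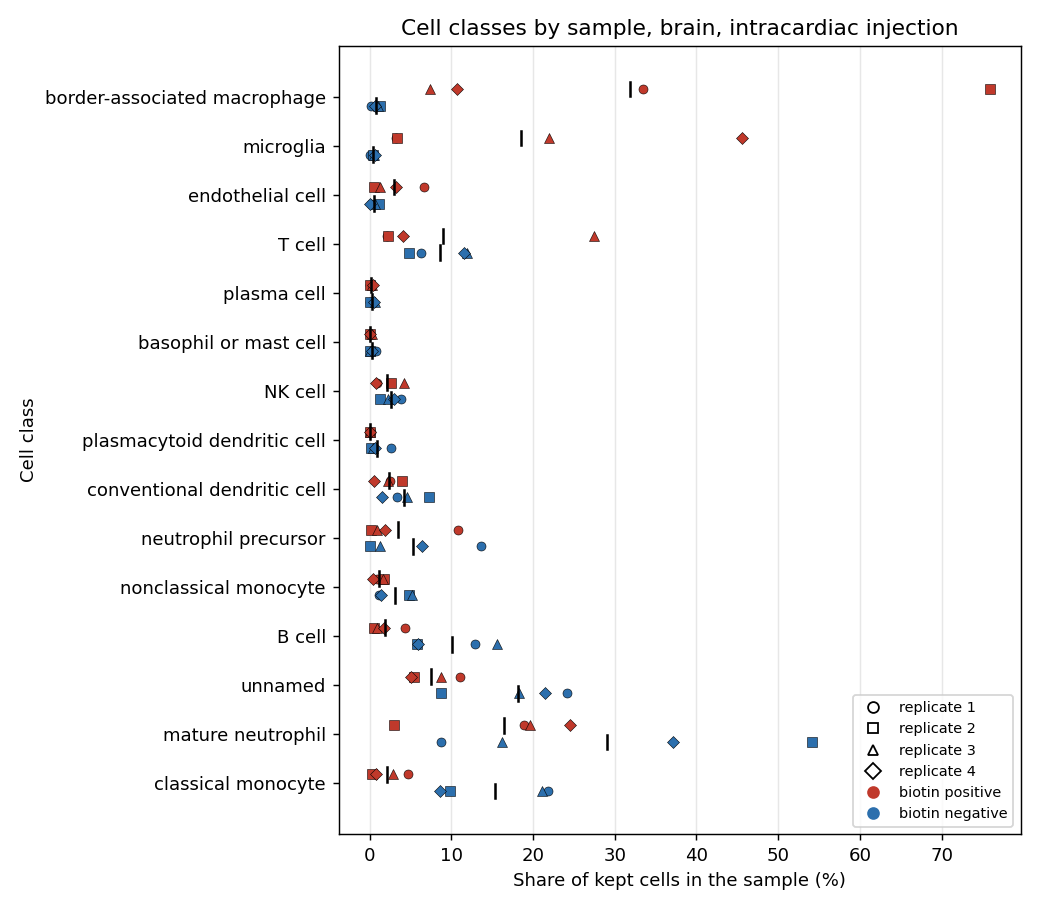
Share of kept cells (%) for 15 cell classes, with 4 biotin-positive (red) and 4 biotin-negative (blue) brain samples per class; marker shape gives the replicate number and the black bar the mean. Border-associated macrophages and microglia lie higher in every positive sample, classical monocytes and B cells lower, and the positive samples spread widely between 7.42% and 75.9% for border-associated macrophages.

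Counts summed over all kept cells of a sample showed the same macrophage genes. In such sums, more cells of a type and more RNA per cell cannot be told apart. Of 11064 genes tested, 339 (3.06%) differed between positive and negative samples in edgeR at an adjusted p under 0.05, 319 higher (2.88%) and 20 lower (0.181%). With the replicate block 762 passed (6.89%), 617 higher (5.58%) and 145 lower (1.31%), and 324 of the 339 were among them. Single samples moved the count widely. Dropping negative replicate 1 left 3 calls, negative replicate 4 left 6 and negative replicate 3 left 61. Dropping positive replicate 4 left 7 and positive replicate 2 left 212, whereas dropping positive replicate 1 raised the count to 758. Of the 40 named genes that passed with all samples, none passed without negative replicate 1, and 1 did without negative replicate 4 or positive replicate 4, so the calls below rest on the full set of samples. DESeq2 called 1225 genes. The CPM values of the sorts did not overlap for 954 genes that were higher (8.62%) and 472 that were lower (4.27%).

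Microglial genes gave the most calls of any list. Of 11 tested, 8 were higher (among them P2ry12, Tmem119, Gpr34, Sall1, Olfml3, Sparc and Fcrls), 9 with the block, and none were lower, against 2.88% of all genes higher without the block and 5.58% with it. Their median log2 fold change was 4.15, where that of all tested genes was -0.03. Sall1, which maintains microglial identity, stood at 7.03, 6.74, 40.3 and 80.5 CPM in positive samples 1 to 4 and 0.0491, 0.311, 0.193 and 0.923 in negative ones. Every positive sample was far above the negative range (log2 fold change 6.29 ± 1.13 (SE), adjusted p = 0.0268). P2ry12, the ADP receptor that guides microglial processes, was at 67.7, 69.2, 172 and 481 CPM against 4.67, 18.04, 10.6 and 11.4 (log2 fold change 4.15 ± 0.75 (SE), adjusted p = 0.0279). Replicates 1 and 2 were close to each other and replicate 4 was the highest. Tmem119, of unsettled function but specific to microglia in the brain, was at 25.9, 24.5, 147 and 233 against 2.9, 10.6, 7.32 and 5.63 CPM (log2 fold change 4.05 ± 0.83 (SE), adjusted p = 0.0374). Gpr34, a receptor for lysophosphatidylserine, was at 48, 65.5, 270.3 and 505 against 2.31, 6.84, 12.3 and 8.81 CPM (log2 fold change 4.90 ± 0.89 (SE), adjusted p = 0.028). All of these followed the share of microglia-like cells, low in positive replicates 1 and 2 and high in 3 and 4. Fcrls, an Fc receptor-like gene, differed less among positive samples, at 95.8, 157, 184 and 242 CPM, against 2.06, 13.99, 8.86 and 4.24 (log2 fold change 4.58 ± 0.61 (SE), adjusted p = 0.0155). Sparc, a matrix-binding glycoprotein, was at 111, 83.8, 364 and 557 against 4.72, 23.8, 10.4 and 7.197 CPM (log2 fold change 4.61 ± 0.79 (SE), adjusted p = 0.0232). Slc1a3, a glutamate transporter from the astrocyte list, also rose (log2 fold change 5.53 ± 1.07 (SE), adjusted p = 0.0321). Among the positive macrophages it was found in the microglia-like class, at 113, 113, 120 and 191 CPM in replicates 1 to 4, and was at most 4.96 CPM in border-associated macrophages.

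The bases before the start sites are shown for 3 marker genes, the microglial P2ry12 and the border-associated Mrc1 and Pf4. They are given as in RefSeq on GRCm38.p6, 250 bases each, 5′ to 3′. They were searched on both strands for the exact letters GAGGAAGT, and capitals mark a match. These letters are a form of the site that the macrophage factor PU.1 and other ETS factors recognise, and other forms were not searched.
P2ry12, chr3:59262986-59263235, - strand: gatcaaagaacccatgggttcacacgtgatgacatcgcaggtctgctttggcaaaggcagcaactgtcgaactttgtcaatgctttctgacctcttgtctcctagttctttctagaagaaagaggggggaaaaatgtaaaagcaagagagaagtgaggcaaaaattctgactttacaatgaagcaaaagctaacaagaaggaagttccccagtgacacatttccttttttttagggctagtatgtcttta
Mrc1, chr2:14229164-14229413, + strand: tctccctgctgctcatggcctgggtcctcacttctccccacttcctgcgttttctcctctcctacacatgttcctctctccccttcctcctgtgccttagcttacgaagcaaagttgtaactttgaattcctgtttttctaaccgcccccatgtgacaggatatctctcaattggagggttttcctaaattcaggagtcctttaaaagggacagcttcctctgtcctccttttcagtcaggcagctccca
Pf4, chr5:90772185-90772434, + strand: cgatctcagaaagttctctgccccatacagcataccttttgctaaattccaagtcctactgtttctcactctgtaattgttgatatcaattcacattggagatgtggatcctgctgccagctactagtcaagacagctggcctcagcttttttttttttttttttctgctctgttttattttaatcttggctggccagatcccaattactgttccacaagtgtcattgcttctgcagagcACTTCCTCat
Of all 32851 promoter windows of this length, 2.44% held the letters on either strand, and of these 3 only that of Pf4 did. It was also the only match among 13 windows of the 10 genes searched. P2ry12 lies on chromosome 3, Mrc1 on chromosome 2 and Pf4 on chromosome 5. Besides the 3 shown these were Sall1, with 3 windows, Folr2, with 2, and Cd163, Fcrls, Crybb1, Gas6 and Igf1. A match describes letters and is not a measured site, and the data hold no measurement of binding there.

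Border-associated macrophage genes all had positive log2 fold changes, and few passed without the block. Of 12 tested, 3 were higher (Lyve1, Folr2 and Cd209f), against 2.88% of all genes, and none were lower. With the block 9 were higher, adding Mrc1, Pf4, Cd163, Cbr2, Stab1 and Dab2, against 5.58% of all genes. Their median log2 fold change was 4.28. Lyve1 was at 99.1, 851, 50.5 and 38.9 CPM in positive samples 1 to 4 and 1.23, 7.93, 2.503 and 3.51 in negative ones (log2 fold change 6.13 ± 1.24 (SE), adjusted p = 0.0363). Positive replicate 2 stood apart, and the remaining positive samples were still above the negative range. Without that sample the log2 fold changes were smaller, at 4.09 for Lyve1, 2.49 for Mrc1 and 3.10 for Cd163. Mrc1, the mannose receptor, was at 538, 2307, 154 and 133 against 10.1, 130.5, 44.5 and 10.6 CPM (log2 fold change 4.01 ± 1.22 (SE), adjusted p = 0.109, or 0.0236 with the replicate block). Here positive replicate 4 lay just above negative replicate 2. Pf4, a platelet-type chemokine that these macrophages also make, was at 329, 1254, 100.3 and 87.9 against 9.58, 42.9, 14.6 and 8.53 CPM (log2 fold change 4.56 ± 1.02 (SE), adjusted p = 0.0501, or 0.00936 with the replicate block). Cd163 was at 202, 1079, 60.1 and 84.6 against 2.36, 38.2, 8.66 and 5.58 CPM (log2 fold change 4.72 ± 1.23 (SE), adjusted p = 0.0743, or 0.013 with the replicate block). Folr2, a folate receptor, was at 30.6, 129, 13.6 and 15.6 against 0.639, 4.04, 1.93 and 1.015 CPM (log2 fold change 4.77 ± 0.93 (SE), adjusted p = 0.0338). Cd209f, a C-type lectin, rose from 0.886 ± 0.833 to 21.3 ± 10.03 CPM (SD, n = 4, log2 fold change 4.84 ± 0.68 (SE), adjusted p = 0.0155). F13a1, which classical monocytes also express, had a log2 fold change of 0.20 and did not pass. Positive replicate 2 was the highest and replicate 1 the next for each of Lyve1, Mrc1, Pf4, Cd163 and Folr2, as they were for the share of these cells, while the order of replicates 3 and 4 varied by gene.

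Monocyte genes all had negative log2 fold changes. Of 9 tested, 2 passed, Vcan and Fn1, against 0.181% of all genes, and 7 with the block, against 1.31%. Vcan, a matrix proteoglycan made by monocytes, was at 24, 9.16, 26.6 and 11.1 CPM in positive samples and 130.2, 172, 189 and 103 in negative ones (log2 fold change -3.09 ± 0.40 (SE), adjusted p = 0.0155). Fn1, fibronectin, was at 167, 91.1, 131 and 102 against 655, 788, 770.1 and 490.5 CPM (log2 fold change -2.46 ± 0.27 (SE), adjusted p = 0.00974). For both genes even the lowest negative sample was well above the highest positive one. Ccr2, the chemokine receptor that brings monocytes into tissue, was at 118, 73.02, 136 and 27.9 against 321, 445, 551 and 201 CPM (log2 fold change -2.10 ± 0.50 (SE), adjusted p = 0.0587, or 0.0103 with the replicate block). Ly6c2 was at 789, 32.6, 179 and 299.9 against 1299, 385, 634 and 1411 CPM and overlapped, with positive replicate 1 above negative replicates 2 and 3 (log2 fold change -1.52 ± 0.81 (SE), adjusted p = 0.319, or 0.0469 with the replicate block). Without positive replicate 1 its log2 fold change was -2.47.

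Lymphocyte and neutrophil genes separated the sorts less. No B cell gene of 9 passed, and with the block 6 were lower (among them Cd79a, Cd79b, Pax5, Fcmr and Ighd), against 1.31% of all genes. Cd79a, a chain of the B cell receptor, was at 58.3, 4.85, 19.1 and 31.2 CPM in positive and 150.05, 59.4, 190.4 and 82.4 in negative samples (log2 fold change -2.07 ± 0.66 (SE), adjusted p = 0.121, or 0.035 with the replicate block). The T cell list had no call among 10 genes in either fit, and Cd3e was at 7.45, 18.6, 127 and 15.99 against 14.8, 22.2, 47.9 and 33.3 CPM, with positive replicate 3 alone above the negative range. Of the 8 mature neutrophil genes none passed in either fit, and S100a8, a calcium-binding protein that neutrophils hold in great amounts, was at 55176, 7003, 34457 and 47246 against 46394, 101278, 45639 and 151382 CPM. The samples overlapped and positive replicate 2 was the lowest (log2 fold change -1.26 ± 0.64 (SE), adjusted p = 0.298). Endothelial genes gave 1 call of 9, against 2.88% of all genes higher, Emcn, a sialomucin of venous and capillary endothelium, at 18.8, 2.16, 5.46 and 9.43 against 1.03, 1.71, 0.385 and 0.461 CPM (log2 fold change 3.37 ± 0.71 (SE), adjusted p = 0.0418), and Kdr, a receptor for VEGF, joined it with the block, against 5.58%. Cldn5, a tight junction protein of brain vessels, was at 119, 10.2, 27.98 and 164 against 3.83, 26.6, 9.05 and 0.5998 CPM and did not pass (log2 fold change 3.06 ± 1.14 (SE), adjusted p = 0.174, or 0.233 with the replicate block).

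**Figure D2:**
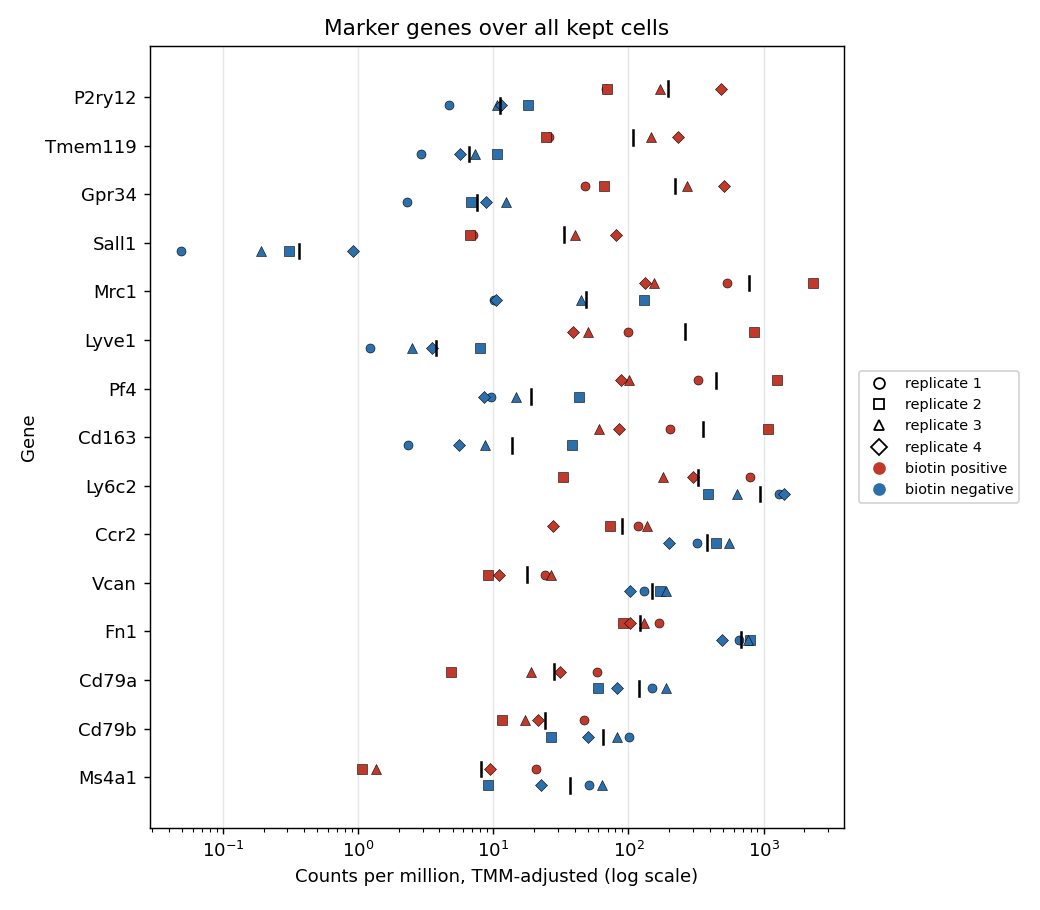
TMM-adjusted CPM (log scale) over all kept cells of each brain sample for 15 of the first-listed genes of 4 marker lists, from top to bottom microglia, border-associated macrophage, classical monocyte and B cell; red is biotin positive, blue biotin negative, shapes are replicate numbers and bars are means. The microglial and border-associated genes do not overlap between the sorts, nor do Ccr2, Vcan, Fn1 and Cd79a, while Ly6c2, Cd79b and Ms4a1 do.

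Among functional groups, the recognition subunits of complement were higher. C1qa, C1qb and C1qc, which together form the C1q molecule, were 3 of 11 complement genes that passed, all higher, against 2.88% of all genes. The median log2 fold change of the 11 was 2.02. C1qa was at 1067, 4189, 2456 and 3709 CPM in positive and 29.7, 383, 273 and 105 in negative samples (log2 fold change 3.85 ± 0.79 (SE), adjusted p = 0.0375). The groups did not overlap. C1qb (log2 fold change 3.73 ± 0.79 (SE), adjusted p = 0.0428) and C1qc (log2 fold change 3.93 ± 0.84 (SE), adjusted p = 0.0429) moved likewise. With the block 6 were higher, against 5.58% of all genes, among them C4b and the receptor C3ar1, and 1 was lower, C3, against 1.31%.

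Growth factors gave 5 calls of 10, all higher: Igf1, Tgfa, Vegfb, Pdgfa and Pdgfb. Over all genes 2.88% were higher, and the median log2 fold change of the 10 was 2.50. Igf1, insulin-like growth factor 1, was at 37.2, 96.7, 27.3 and 22.8 CPM against 0.442, 3.27, 2.89 and 0.877 (log2 fold change 4.79 ± 0.76 (SE), adjusted p = 0.0192). Tgfa, a ligand of the EGF receptor, was at 6.41, 10.5, 21.2 and 28.3 against 0.147, 0.466, 0.963 and 0.323 CPM (log2 fold change 5.36 ± 0.69 (SE), adjusted p = 0.0155). Vegfb was at 19.7, 30.2, 23.9 and 44.1 against 7.96, 5.29, 8.47 and 7.34 CPM (log2 fold change 2.02 ± 0.29 (SE), adjusted p = 0.0155). With the block 6 were higher, against 5.58% of all genes, adding Hbegf, and 1 was lower, Areg, against 1.31%. Areg and Calca led an unnamed cluster of 192 cells, 187 of them in the negative sort.

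Of 9 efferocytosis genes, which serve the uptake of dying cells, Gas6 and Pros1 passed, the bridging ligands that link phosphatidylserine to TAM receptors, both higher, against 2.88% of all genes. Gas6 was at 73.7, 218, 27.3 and 48.2 against 1.23, 6.997, 4.24 and 1.66 CPM (log2 fold change 4.80 ± 0.83 (SE), adjusted p = 0.0244). Pros1 was at 22.3, 46.1, 27.98 and 44.3 against 8.65, 14.6, 13.7 and 7.29 CPM (log2 fold change 1.69 ± 0.33 (SE), adjusted p = 0.0333). Their receptor Mertk was at 48.8, 222, 151 and 155 against 1.23, 29.2, 12.5 and 4.198 CPM, without overlap, and passed with the block (log2 fold change 3.65 ± 0.90 (SE), adjusted p = 0.0647, or 0.00919 with the replicate block). Axl, Timd4 and Itgb5 also passed there, which made 6 higher, against 5.58% of all genes.

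Of 14 chemokines 1 was higher, against 2.88% of all genes, Ccl8, a CC chemokine, at 13.9, 74.9, 30.03 and 64.8 against 0.246, 5.75, 1.73 and 1.25 CPM (log2 fold change 4.49 ± 0.90 (SE), adjusted p = 0.0363). With the block Ccl7, Ccl12, Ccl24, Cxcl1 and Cxcl16 were higher too, against 5.58% of all genes. Ccl24, an eotaxin, was at 70.1, 354, 32.8 and 31.8 against 1.43, 9.95, 9.24 and 4.198 CPM (log2 fold change 4.36 ± 0.99 (SE), adjusted p = 0.0521, or 0.0279 with the replicate block). The scavenger receptors gave no call of 11, and with the block Mrc1, Cd163, Stab1 and Colec12 were higher, against the same 5.58%, and Scarb1 lower, against 1.31%.

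All 19 lysosome genes had a positive log2 fold change, with a median of 0.92. Of these 1 passed, a share near the 2.88% of all genes that were higher: Hexa, the alpha subunit of hexosaminidase, at 154, 196, 139 and 202 against 93.04, 77.3, 81.6 and 111 CPM (log2 fold change 0.93 ± 0.20 (SE), adjusted p = 0.0452). With the block 7 passed, all higher, against 5.58% of all genes, adding the cathepsins Ctsb, Ctsd and Ctsl, and Lgmn, Cd68 and Grn. The list of disease-associated microglia, a set of genes that microglia raise near plaques and damage, was split. Trem2, a lipid-sensing receptor, was higher, at 156, 273, 429 and 833 against 41.2, 56.8, 60.1 and 44.5 CPM (log2 fold change 3.06 ± 0.49 (SE), adjusted p = 0.0193). Lgals3, galectin-3, was lower, at 560.5, 223, 243 and 336 against 1126, 891, 849 and 1329.6 CPM (log2 fold change -1.62 ± 0.33 (SE), adjusted p = 0.0374). Apoe, the lipid carrier, was at 6878, 24852, 7341 and 5626 against 435, 3360.3, 3172 and 722 CPM and passed with the block (log2 fold change 2.54 ± 0.78 (SE), adjusted p = 0.112, or 0.023 with the replicate block). Of 14 genes in that list 12 did not pass. With the block 5 were higher and 1 lower, against 5.58% and 1.31% of all genes.

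Among 14 lineage factors, Maf and Bhlhe41 were higher, against 2.88% of all genes, and 4 with the block, against 5.58%. Maf, a factor of resident macrophages, was at 489, 1498, 339 and 367 against 15.5, 90.96, 79.7 and 30.5 CPM (log2 fold change 3.64 ± 0.72 (SE), adjusted p = 0.0348). Bhlhe41 was at 10.97, 27.2, 47.1 and 55.7 against 1.62, 4.198, 6.35 and 2.95 CPM (log2 fold change 3.27 ± 0.58 (SE), adjusted p = 0.0268). Csf1r, the receptor on which brain macrophages depend, was at 322, 985, 620.4 and 749 against 54.6, 201, 179.8 and 56.4 CPM (log2 fold change 2.45 ± 0.54 (SE), adjusted p = 0.0479). Hpgds, a prostaglandin D synthase from the iron handling list, was higher too (log2 fold change 4.06 ± 0.59 (SE), adjusted p = 0.0155). No gene passed in either fit among 9 MHC class I and 12 cell cycle genes. MHC class II genes had a median log2 fold change of -0.54, none of 9 passed, and with the block 1 was lower, their regulator Ciita, against 1.31% of all genes. Of 13 interferon-stimulated genes none passed, and 1, Ifitm3, was lower with the block, against the same 1.31% (log2 fold change -1.14 ± 0.27 (SE), adjusted p = 0.0574, or 0.036 with the replicate block). The 13 inflammatory genes gave no call, and 2, Il1a and Tnf, were higher with the block, against 5.58% of all genes.

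**Figure D3:**
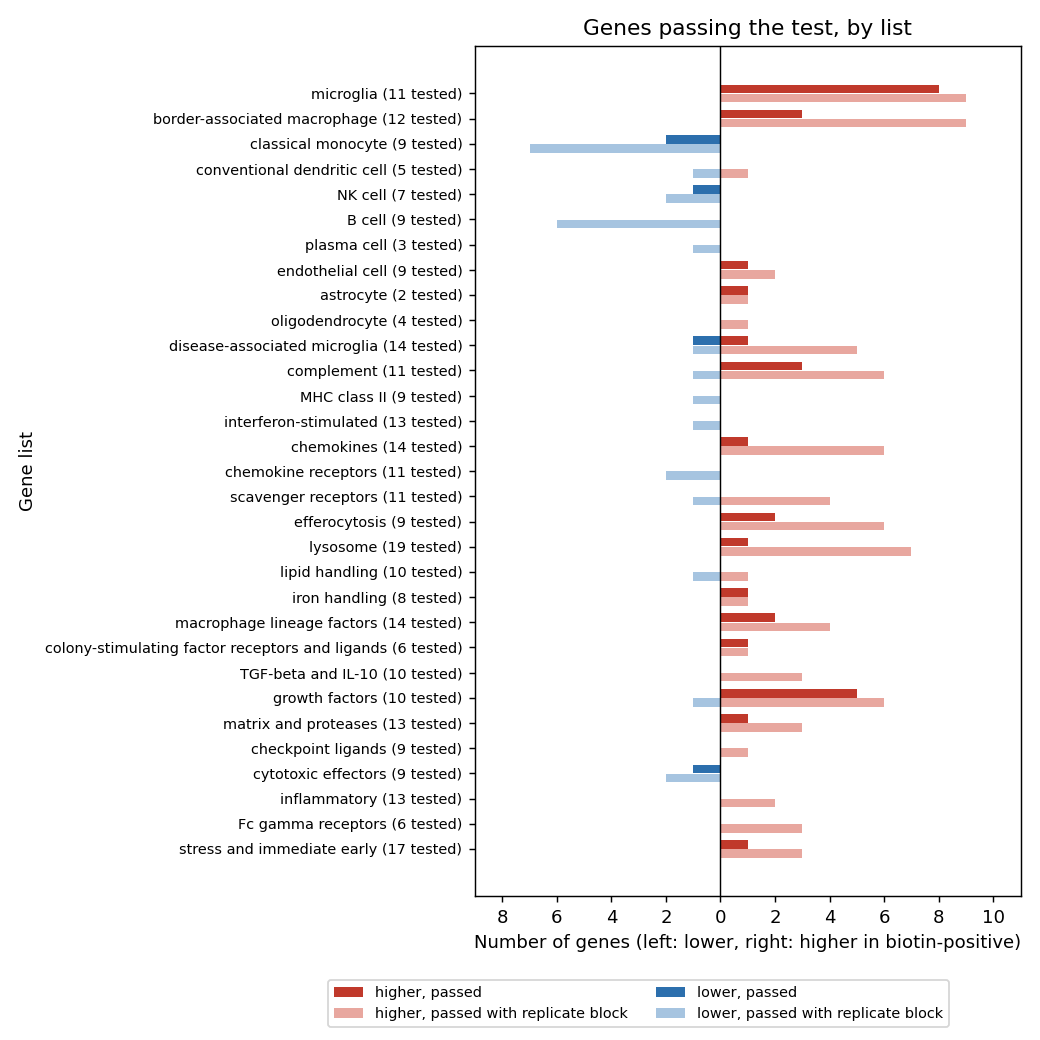
Number of genes in each list that passed at an adjusted p under 0.05, higher in biotin-positive samples to the right and lower to the left; dark bars are without and light bars with the replicate block, and the number tested stands beside each name. The microglia list has the longest dark bar, 8 of 11, and the border-associated macrophage list goes from 3 to 9 of 12 with the block.

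Of the genes outside the lists, chosen for size among 108 genes that passed, did not overlap and averaged at least 20 CPM, 4 were higher. Crybb1, a crystallin that microglia express early, was at 13.03, 23.4, 38.2 and 135 CPM in positive and 1.18, 1.09, 1.16 and 1.015 in negative samples (log2 fold change 5.56 ± 0.78 (SE), adjusted p = 0.0155). The negative samples lay close together and far below every positive one. Pmp22, a membrane protein known from myelin, was at 54.2, 292, 105 and 187 against 0.442, 14.3, 6.93 and 4.15 CPM (log2 fold change 4.68 ± 0.94 (SE), adjusted p = 0.0363). Phyhd1, a dioxygenase, was at 12.4, 65.7, 34.1 and 71.3 against 0.737, 5.29, 2.12 and 1.52 CPM (log2 fold change 4.34 ± 0.74 (SE), adjusted p = 0.0232). Etv1, an ETS transcription factor, was at 30.6, 137, 17.7 and 19.7 against 0.934, 6.22, 3.27 and 1.29 CPM (log2 fold change 4.24 ± 0.90 (SE), adjusted p = 0.0421), with replicate 2 far above the other positive samples. The lower genes were headed, after Vcan and Fn1, by S100a4, a calcium-binding protein abundant in monocytes, at 186, 115, 283 and 77.3 against 677, 783, 770.5 and 481 CPM (log2 fold change -2.04 ± 0.40 (SE), adjusted p = 0.0338). F10, coagulation factor X (log2 fold change -2.01 ± 0.43 (SE), adjusted p = 0.0428), the orphan receptor Gpr141 (log2 fold change -1.71 ± 0.29 (SE), adjusted p = 0.0231) and Mcub, a subunit of the mitochondrial calcium channel (log2 fold change -1.62 ± 0.22 (SE), adjusted p = 0.0155), followed. Pira2 fell as well (log2 fold change -1.70 ± 0.35 (SE), adjusted p = 0.0364), and belongs to a family of near-identical receptor genes among which the counting could split reads. S100a4, F10 and Mcub were also among the leading genes of a classical monocyte cluster. Gzma, a protease of cytotoxic granules, was at 40.1, 25.1, 35.5 and 17.2 against 123, 52.9, 115 and 88.7 CPM (log2 fold change -1.69 ± 0.34 (SE), adjusted p = 0.0367).

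Within the positive samples, the 2 macrophage classes differed in what they expressed. The clusters were made from the same genes, so these levels, as CPM of each class's own counts, are a description without a test. Apoe stood at 48251, 37719, 33303 and 37936 CPM in border-associated macrophages of positive samples 1 to 4 and at 6952, 5947, 11624 and 8349.7 in their microglia-like ones. Trem2 had the other order, at 1766, 1230.2, 1473 and 2251 CPM in microglia-like cells and 699.7, 334, 508 and 613 in border-associated ones. Maf was at 3572, 2407, 2295 and 2145 CPM in border-associated macrophages and 669.9, 445, 578 and 657 in microglia-like cells. Each of these orders held in all 4 samples. Igf1 was at 281, 153, 328 and 264 CPM in the border-associated class and 0, 7.55, 40.9 and 17.5 in microglia-like cells. Gas6 was at 519, 356, 361 and 386 and 95.7, 45.3, 27.3 and 62.5 CPM in that order. Pdgfb, by contrast, was at 131, 106, 284 and 192 CPM in microglia-like and 14.96, 9.02, 0 and 22.04 in border-associated cells. Tgfa was higher in microglia-like cells in all 4 samples, and Vegfb was higher in neither class throughout. Csf1, the ligand of Csf1r, was at 104, 60.4, 543 and 217 CPM in microglia-like cells and 1.66, 3.61, 0 and 11.02 in border-associated ones. Tgfbr1, a receptor for TGF-beta, was at 1096, 498, 715 and 751 and 129.6, 81.2, 180.3 and 88.2 CPM. The C1q genes were high in both, C1qa at 7744, 8830.1, 7492 and 9500.1 CPM in microglia-like and 6467, 5903, 5539.6 and 5896 in border-associated cells.

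Several chemokines also differed in level between the 2 classes. Ccl24 was at 547, 589, 672 and 499.6 CPM in border-associated macrophages and 8.701, 7.55, 8.18 and 9.94 in microglia-like cells. Ccl7, a CCR2 ligand, was at 183, 2469.5, 1639 and 1098 and 8.701, 15.1, 19.1 and 60.8 CPM. Ccl8 was at 111, 119.98, 541 and 1142 and 0, 0, 2.73 and 1.17 CPM. For each, the lowest border-associated value was above the highest microglial one. Ccl4 had the reverse order in every sample, at 1853, 3999.97, 8487 and 4874 CPM in microglia-like and 29.9, 2191, 2393 and 456 in border-associated cells. Ctsd, cathepsin D, was at 8048, 6513, 6155 and 6669 CPM in microglia-like and 1275, 1040.1, 1901 and 1719 in border-associated cells. Fos, an immediate early gene, was at 1348, 5894, 6048 and 6594 CPM in border-associated and 974, 3947, 5294 and 5663 in microglia-like cells, lowest in positive replicate 1 in both. Cxcl2, a neutrophil attractant, was at 125, 5115, 4982 and 2248 and 34.8, 543, 1323 and 152 CPM, lowest in replicate 1 in both. S100a8, a neutrophil gene, was at 8276, 3849.8, 2114 and 922 CPM in border-associated macrophages and 418, 936, 1385 and 796 in microglia-like cells, and its part in the other values was not tested. The counts behind these levels ran from 61015 UMIs in 23 border-associated cells of positive replicate 3 to 2217025 in 512 cells of replicate 2.

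**Figure D4:**
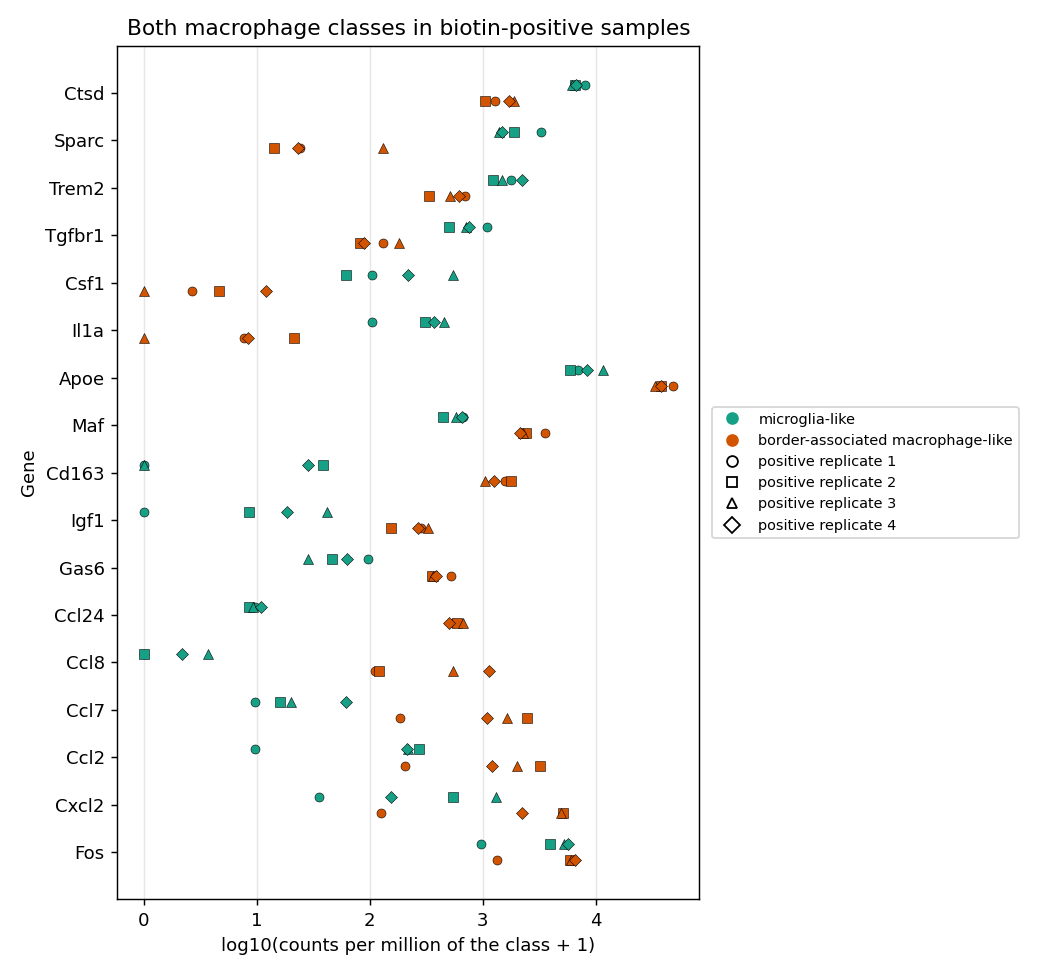
Level of 17 genes, as log10 of CPM of the class plus 1, in microglia-like (green) and border-associated macrophage-like (orange) cells of the 4 biotin-positive samples, with shapes for replicate numbers. Apoe, Maf, Igf1, Gas6, Ccl24, Ccl8 and Ccl7 lie to the right in border-associated cells, Ctsd, Trem2, Tgfbr1 and Csf1 in microglia-like cells, and replicate 1 is lowest for Fos in both.

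Whether a cell class differed between the sorts in its own expression could be tested for 7 classes with at least 10 cells in 2 or more samples of each sort. Microglia, classical monocytes and endothelial cells had too few cells in one of the sorts, with microglia reaching 10 cells in 1 negative sample. In mature neutrophils no gene of 4686 passed in edgeR (0%) or in DESeq2, and 77 had an unadjusted p under 0.05. With the replicate block 73 passed (1.56%), 55 higher (1.17%) and 18 lower (0.384%). Of the lists, 4 of 10 inflammatory and 6 of 15 immediate early and stress genes tested were higher there. Il1b, which was chosen like the other neutrophil genes here after its values were seen, encodes the cytokine interleukin-1 beta and was at 6198, 6229.8, 5416 and 5122 CPM in positive neutrophils and 4021, 4481, 3364 and 3175 in negative ones (log2 fold change 0.61 ± 0.17 (SE), adjusted p = 1, or 2.68e-06 with the replicate block). The lowest positive sample was above the highest negative one. Ccl4 was at 237, 732, 118 and 280.2 against 17.7, 117, 146 and 62 CPM and overlapped (log2 fold change 1.87 ± 0.58 (SE), adjusted p = 1, or 1.01e-05 with the replicate block). Cd177, a surface glycoprotein of neutrophils, was lower with the block, at 497, 264, 275 and 467 against 746, 418, 510.3 and 669 CPM (log2 fold change -0.60 ± 0.26 (SE), adjusted p = 1, or 0.000349 with the replicate block). In the same fit 9 of 12 mitochondrially encoded genes were higher in the positive sort, among them mt-Nd2 at 414, 192, 57.2 and 228 against 123, 61.5, 41.3 and 66.4 CPM, and their part in the other changes was not tested. Pooled over samples, the cluster led by Il1b, Ptgs2 and Csf3r held 52.1% of positive and 25.5% of negative neutrophils. By sample it held 50 of 104, 6 of 20, 35 of 61 and 91 of 164 positive neutrophils in replicates 1 to 4. In the negative samples it held 38 of 179, 105 of 789, 51 of 178 and 369 of 1061. Its part was higher in the positive sample of every pair. Positive replicate 2 lay below negative replicate 4, and the difference was not tested.

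Border-associated macrophages gave no call among 1197 genes (0%) in edgeR with or without the block, in 4 positive and 3 negative samples, nor in DESeq2. Unadjusted, 62 of them were at a p under 0.05. Only 51 negative cells entered this test. In NK cells 1 gene of 1175 passed (0.0851%), Gzma, which was lower, at 1392 and 1215 CPM in positive replicates 2 and 3 and 8478, 6746, 9824 and 7461 in negative replicates 1 to 4 (log2 fold change -2.64 ± 0.23 (SE), adjusted p = 0.000237). Positive replicates 1 and 4 held 5 NK cells each and were left out of this fit. The call held with 1 negative sample left out in turn, in DESeq2, without the low-count filter and without high doublet scores. Leaving out a positive sample left a single one, which is then assumed to vary like the negative samples. Perforin, encoded by Prf1, was at 127 and 181 against 618, 567, 1221 and 538 CPM and passed with the block (log2 fold change -2.26 ± 0.50 (SE), adjusted p = 0.202, or 0.000178 with the replicate block). The neutrophil gene S100a8 was at 1446 and 1576 against 6822, 2375, 2676 and 6075 CPM in these cells and passed with the block, lower (log2 fold change -1.59 ± 0.44 (SE), adjusted p = 0.342, or 0.000385 with the replicate block), and S100a9 likewise (log2 fold change -1.81 ± 0.50 (SE), adjusted p = 0.342, or 5.94e-05 with the replicate block). Their part in the Gzma value was not tested. With the block 95 NK genes passed (8.09%), 65 higher (5.53%) and 30 lower (2.55%), from 31 positive cells. That fit rests on 2 pairs, since negative replicates 1 and 4 had no partner, and the block values of B cells, dendritic cells and precursors rest on 2 pairs as well.

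T cells gave no call among 2904 genes (0%) in edgeR, where 136 had an unadjusted p under 0.05, 1 in DESeq2, and 20 with the block (0.689%), all lower in the positive sort. Pooled over samples, the T cell cluster led by Lef1, Dapl1 and Tcf7 held 7.91% of positive and 26.6% of negative T cells. That led by Gzmk, Cd8b1 and Ccl5 held 58.3% and 41.3%. By sample, the Lef1 cluster held 7, 3, 1 and 0 positive cells in replicates 1 to 4 and 89, 45, 19 and 23 negative ones. The Gzmk cluster held 3, 4, 53 and 21 against 16, 7, 74 and 176. As parts of each sample's T cells, both clusters overlapped between the sorts. In every pair the Lef1 part was lower and the Gzmk part higher in the positive sample, which was not tested. Among the genes lower with the block were neutrophil genes: S100a8 was at 457, 955, 2158 and 861 CPM in positive and 3195, 1354, 9725 and 5995 in negative T cells (log2 fold change -2.14 ± 0.51 (SE), adjusted p = 0.424, or 0.000266 with the replicate block). Retnlg, another neutrophil gene, was at 174, 243, 297 and 174 against 1111, 298, 3090.5 and 2351 CPM in T cells. With the block S100a8 was also lower in positive conventional dendritic cells, at 301 and 754 CPM in 2 samples against 5536, 3819, 1190.3 and 10275 in 4 (log2 fold change -3.27 ± 0.75 (SE), adjusted p = 0.52, or 2.39e-07 with the replicate block). In B cells it was at 553 and 543 against 1379.7, 1837, 2609 and 1105 CPM. These are neutrophil genes by the marker list, and their part in the other values of these classes was not tested. B cells gave no call (0%) in edgeR or DESeq2, with 145 genes at an unadjusted p under 0.05, and 5 with the block (0.127%), 2 higher (0.0507%) and 3 lower (0.076%). Conventional dendritic cells gave none in edgeR, with 268 genes at an unadjusted p under 0.05, 2 in DESeq2, and 8 with the block (0.173%), all lower. Neutrophil precursors gave none in edgeR or DESeq2, with 139 genes at an unadjusted p under 0.05, and 24 with the block (0.28%), 5 higher (0.0583%) and 19 lower (0.221%).

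The biotin difference in brain was then set against that in bone, liver and lung by an interaction test over all 32 intracardiac samples. Of 13963 genes, 42 (0.301%) differed, 39 larger in brain (0.279%) and 3 smaller (0.0215%), and 142 did with the block (1.02%), 117 larger (0.838%) and 25 smaller (0.179%). Dropping a brain sample left 12 (negative replicate 1), 19 (negative replicate 2 or 3), 11 (negative replicate 4), 27 (positive replicate 3) or 9 genes (positive replicate 4), and 315 when positive replicate 1 was dropped. Crybb1 led, with mean levels of 50.6 CPM in positive and 1.09 in negative brain and under 1 CPM in both sorts of the other tissues (log2 difference 7.40 ± 0.86 (SE), adjusted p = 3.68e-05). That size includes ratios between levels under 1 CPM. As means of log2(CPM + 1), the biotin difference of Crybb1 was 4.08 in brain and -0.43, -0.54 and -0.62 in bone, liver and lung. P2ry12 was at 190.3 and 10.97 CPM in brain and between 3.58 and 18.7 elsewhere (log2 difference 4.02 ± 0.68 (SE), adjusted p = 0.00526). Of 11 microglial genes 4 passed, P2ry12 among them, and none of 12 border-associated macrophage genes did. Cst3, cystatin C, an inhibitor of cathepsins, was at 6834 against 1476 CPM in brain (log2 difference 2.39 ± 0.39 (SE), adjusted p = 0.00526). In bone, liver and lung its positive and negative means lay between 778 and 1412 CPM. Tagap, a GTPase-activating protein of immune cells (log2 difference 2.88 ± 0.44 (SE), adjusted p = 0.00368), and Fez2 (log2 difference 1.73 ± 0.29 (SE), adjusted p = 0.00526) were also larger in brain. These 5 named genes kept their call under all 12 alternatives. The 3 genes with a smaller difference in brain, Aifm2, Sept9 and Ermp1, were higher in positive lung than in negative lung, with Aifm2 at 40.4 against 6.24 CPM there and 5.27 against 8.23 in brain (log2 difference -1.42 ± 0.31 (SE), adjusted p = 0.0431). These 3 lost their call in 7, 8 and 8 of the 12 alternatives.

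**Figure D5:**
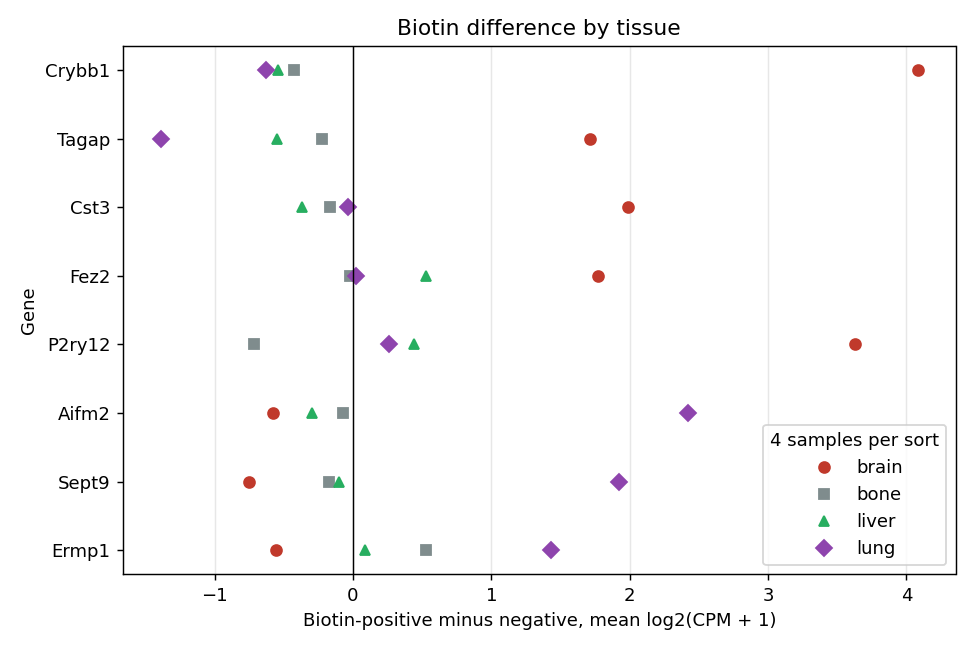
Biotin-positive minus biotin-negative mean of log2(CPM + 1) in brain, bone, liver and lung (4 samples per sort and tissue) for 8 genes named from the test of brain against the other tissues. The first 5 genes lie between 1.71 and 4.08 in brain and between -1.39 and 0.53 elsewhere; for the last 3, lung is the highest.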

How the data were processed

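Single-cell 3′ RNA-seq with CellPlex tags was run on sorted brain cells. Each sample's deposited matrix holds raw UMI counts for genes by barcodes, split by tag beforehand, per the labels. Per the file headers the matrices came from Cell Ranger 6.1.2. The submitters' processing notes name mm10 and Seurat, without a version or role. The matrices given here list 32285 genes, and 2 genes of the lists were not analysed here. Some genes that the naming rule chose are not reported here, and counts include them.

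The members of each list, the lists and the tests were chosen with earlier results of these data known. Counts were summed per sample and tested in edgeR 4.0.16 (quasi-likelihood, TMM, filterByExpr) with Benjamini-Hochberg adjustment. DESeq2 1.42.0 and limma 3.58.1 were alternatives. CPM are TMM-adjusted for sums over all cells. Cells were clustered with scanpy 1.11.5 (2000 variable genes, 30 components, 15 neighbours, Leiden resolution 1.0, igraph 0.11.9) and named from 25 lists with 197 genes. No doublets were removed, and leaving out the 5% with the highest Scrublet scores (478 cells) was an alternative. Shares were tested by exact permutation (both sides, 70 assignments).

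Same-numbered positive and negative samples deviated together from their group means (r of 0.216 to 0.640 over the 4 pairs, across genes, each above 0.1). Negative replicate 4 correlated more with positive replicate 1 (r = 0.470) than with its own number. All pairs were above 0.1, so the replicate number, which the labels give, was used as a block beside the main fit. Named genes were the 12 higher and 8 lower with the largest change among those that passed, did not overlap and had a mean of at least 20 CPM (predicted gene models left out), the 3 members of each list with the lowest p, and the first 4 of 7 marker lists. Members of lists without a call are given as counts. In classes, 5 genes per direction with a mean of at least 50 CPM could be named, and 6 per direction in the tissue test.

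Counts for all kept cells were simulated with the fitted trend of spread and equal means within a sort. Of these, 20% of genes changed 2-fold were recovered, 86% of those changed 4-fold and 100% of those changed 8-fold. The changed genes were taken from well-counted ones, and differences in cell mix between samples were not simulated. In the real data Mrc1, Cd163 and Cldn5 changed more than 8-fold and did not pass without the block, so these shares do not carry over.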

Additional observations from a re-analysis of the deposited data

Results flagged for a closer look

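Among 118 groups of 4 samples looked at, 11 held a sample far from the other 3 (its gap to the nearest, over the whole range, above Dixon's 95% value). For normal and independent values chance gives about 1 in 20. Shares and CPM need not be normal, and genes of the same class repeat the same cells, so no excess over chance is shown. Positive replicate 3 was high for T cells, at 27.4% of its cells, and for Cd3e at 126.9, Cd3g at 111.2 and Trac at 76.4 CPM. It also held the only positive basophil-like cell, 0.323% of its cells. Positive replicate 2 was high for Lyve1 at 851, Cd163 at 1079, Folr2 at 129.1 and Etv1 at 137.4 CPM. Positive replicate 1 was high for neutrophil precursors, at 10.9%, and held the only positive plasmacytoid dendritic-like cell, 0.181%. Of the 4 positive samples, replicate 4 was not the far one in any of these groups.

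The biotin difference in brain differed from that in the other tissues for 42 genes by the interaction test. The named ones had log2 differences of 7.40 for Crybb1, 2.88 for Tagap, 2.39 for Cst3, 1.73 for Fez2 and 4.02 for P2ry12. That of Crybb1 includes ratios between very low levels in the other tissues. Aifm2 was at -1.42, Sept9 at -1.31 and Ermp1 at -1.38.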

How the results depend on the processing

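Over all kept cells, the 339 calls became 762 with the replicate block, 1225 in DESeq2, 517 without the low-count filter and 995 when each cell weighed the same in limma (946 higher and 49 lower). Scaled to total counts only, an alternative chosen after seeing the data, 705 passed (693 higher and 12 lower), and the median log2 fold change of all genes was 0.27 where it was -0.03 with TMM. With the block 617 were higher and 145 lower, and in DESeq2 874 and 351, against 319 and 20. With at most 5% mitochondrial UMIs 233 passed. Leaving out 1 sample gave 3 to 758. Of 40 named genes that passed, 40 passed with the block, 39 in DESeq2, 32 with at most 5% mitochondrial UMIs, and 0 to 40 when 1 sample was dropped. The 42 genes of the tissue test became 142 with the block and 210 in DESeq2, and 9 to 315 without 1 sample.

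Within classes, the replicate block gave 5 calls in B cells, 8 in dendritic cells, 73 in mature neutrophils, 24 in precursors, 95 in NK cells and 20 in T cells, and changed no count in border-associated macrophages. DESeq2 gave 2 in dendritic cells, 5 in NK cells and 1 in T cells. Without the low-count filter there were 8 in B cells, 75 in border-associated macrophages, 70 in dendritic cells, 10 in mature neutrophils, 20 in precursors, 35 in NK cells and 52 in T cells. Leaving out 1 sample gave 0 to 3 in dendritic and in T cells and 1 to 2 in NK cells. The 3 in dendritic and the 2 in NK cells came from fits with a single positive sample, which is assumed to vary like the negative ones.

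Tested as cell numbers in edgeR, 6 classes passed that the exact test could not call, with log2 ratios of 5.30 for border-associated macrophages, 5.43 for microglia, 2.51 for endothelial cells, -2.84 for classical monocytes, -2.37 for B cells and -4.14 for plasmacytoid dendritic cells. With the block these were 4.97, 4.93, 2.54 (not passing), -3.26, -2.53 and -4.24. The T cell difference of 0.304 points was reversed, at -0.969 among named clusters only, at a log2 ratio of -0.77 with the block, and at -5.85 to 2.57 points without 1 sample. Neutrophil precursors ranged over -4.33 to 0.911 points without 1 sample. Clustering at resolution 0.5 or 2.0, and leaving out high doublet scores, kept the direction of each class they gave. No class passed the exact test after adjustment with or without them, and its smallest unadjusted p is 0.0286, so they bear on direction only.

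The log2 fold changes of 4 uncalled T cell genes turned. With all samples they were 0.0082 for Cd3d, 0.46 for Cd3e, 0.0054 for Cd3g and 0.0073 for Trac. Cd3d was at -0.23 with the block, -0.10 without the low-count filter, -0.27 in limma and -0.70 to 0.32 without 1 sample. Cd3e was at -0.22 with the block, -0.28 in limma and -1.08 to 0.81 without 1 sample. Cd3g was at -0.44, -0.11 (no low-count filter), -0.54 and -1.16 to 0.31 in that order. Trac was at -0.42 with the block, -0.10 without the low-count filter, -0.0013 without a cell filter, -0.0043 without high doublet scores, -0.53 in limma and -1.22 to 0.30 without 1 sample. The endothelial gene Pecam1 was at -0.058 in limma and -0.18 to 0.67 without 1 sample. The cause of each change was not tested. Few cells limit the values of the negative microglia-like class, at 2, 6, 6 and 18 cells, and of the negative endothelial-like class, at 4, 16, 8 and 3.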

Other observations

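The transthyretin gene Ttr, made by choroid plexus epithelium, was listed at 1.86, 7.28, 0 and 447 CPM over all kept cells of positive replicates 1 to 4 and 1.38, 2.49, 0.578 and 0.231 of the negative ones. In positive replicate 4 its level within border-associated macrophage-like cells was 7994 CPM, and it was at most 3.32 CPM in that class in the other positive samples. The gene was picked after its values were seen and was not tested within the class.

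Spp1, which encodes osteopontin, was at 111, 1075, 49.2 and 18.4 CPM in border-associated macrophage-like cells and 8.701, 377, 128 and 680.4 in microglia-like cells of positive replicates 1 to 4. The 2 classes differed in which sample was highest, replicate 2 for the first and replicate 4 for the second. Over all kept cells Spp1 did not pass (log2 fold change 2.50).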
